A study of Mus musculus with 6 samples.

Results

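The Notch pathway was followed in the embryonic mouse kidney through 10 genes: the ligand Dll1, the receptors Notch1, Notch2, Notch3 and Notch4, the fringe enzymes Lfng, Mfng and Rfng, and the target genes Hes1 and Hey1. They were found as the probe sets whose platform annotation gives 1 of these gene symbols, which were 14 of the 12422 probe sets on the Affymetrix MG_U74Av2 array, for all 10 genes. RNA of whole metanephroi (embryonic kidneys) excised at E14.5 (days after mating, Theiler stage 22) was measured on 6 arrays, 4 of wild-type kidneys and 2 of kidneys carrying the Wnt4 allele Wnt4tm1Amc. Each wild-type sample was a pool of 2 kidneys, labelled strain CD-1, and each mutant sample a pool of 8 to 10 kidneys from 4 to 5 mutant embryos, labelled strain 129. The protocol text of all 6 samples describes CD-1 matings, and the sex is labelled unknown. The labels do not state whether the mutants were homozygous. Genotype, strain label and pool size changed together, so they cannot be told apart. All RNA went through 1 round of amplification and was labelled with biotin. The submitters describe Wnt4 as required for the renal vesicle, the first epithelial ball of the future nephron, and compared the genotypes to find genes of this structure and its descendants.

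Notch signalling passes between touching cells. A Delta or Jagged ligand on one cell binds a Notch receptor on its neighbour, proteases release the receptor's intracellular part, and this part joins the DNA-binding protein Rbpj to switch on genes such as the HES and HEY repressors. Fringe enzymes add sugars to the receptor and so change which ligands it answers to. In the developing kidney, Dll1 is known from the renal vesicle and S-shaped body, and Notch signalling is needed for proximal nephron fates.

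The arrays matched their labels at the mutated gene. The linear signal of Wnt4 was 829, 739, 946 and 699 on the wild-type arrays, against 74.2 and 34.5 on the mutant arrays (adjusted p = 6.11e-05). Nephron progenitor and stromal markers were present in both groups but not at equal levels. Of the 8 nephron progenitor markers tested 3 fell, where 6.35% of all tested genes were lower. They were Uncx (-1.33, adjusted p = 0.000142), Cited1 (-0.76, adjusted p = 0.00818) and Meox2 (-0.94, adjusted p = 0.0191). The other 5 did not pass, Six2 among them (2762 ± 160, SD, n = 4, and 2550 ± 131, SD, n = 2), and the summed signal of the list was 8915 to 9519 on wild-type and 6713 to 6785 on mutant arrays. The stromal factor Foxd1 was at 1397 ± 141 and 4721 ± 40.3. The ureteric bud receptor Ret read 30.5 to 104 on wild-type and 8.08 and 8.61 on mutant arrays. It exceeded the filter level on 1 array and was not tested. Of the 8 ureteric bud markers tested 1 fell, Calb1 (-0.61), 2 rose, Krt7 (0.69) and Krt8 (0.36), and 5 did not pass. Over all tested genes 5.13% were higher. The summed signal of the ureteric bud list was 6255 to 6896 on wild-type and 7063 to 7212 on mutant arrays. The bacterial control BioB, a transcript spiked in at hybridization, was lower on both mutant arrays (929.64 and 950.05 against 1645 to 1903 at its middle probe set). The other hybridization controls, BioC, BioDn and Cre, were also below every wild-type array on both mutant arrays at their _at probe sets. Their differences were smaller, -0.39 to -0.14, and did not pass. The part of these controls in the differences below was not tested. On log2 signals the arrays correlated with r of 0.949 to 0.969 within the wild type, 0.967 between the mutants and 0.944 to 0.955 between the groups.

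Of the Notch genes, Dll1, Notch1, Hes1 and Hey1 fell in the mutant kidney, Notch3 rose, and Notch2, Notch4, Mfng and Rfng did not pass the test. Differences are mutant minus wild type of log2(signal + 16), and a probe set was tested when at least 2 arrays had it above their own 40th percentile, a signal of 101 to 110. Of the 14 probe sets, 11 were tested, covering 9 genes, and 3 were not, among them the only one for Lfng. At an adjusted p of 0.05, 4 of the 11 were lower, where 6.11% of all 7981 tested probe sets were lower, and 1 was higher, where 4.65% of all were higher. Both mutant arrays were below all wild-type arrays for those 4 probe sets (18.8% of all tested) and above them for that 1 (18.6% of all), or outside the range for 5 of 11 where 37.4% of all were. The other 6 overlapped. Dll1 passed the filter through the wild-type arrays alone, so the filter favoured a difference and its place in these counts is no support. These are whole kidneys, so fewer cells of a type and less RNA per cell cannot be told apart. The labels name the samples replicates of minimally pooled kidneys but do not tie them to litters, and p-values measure only the spread between these pools.

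**Figure D1:**
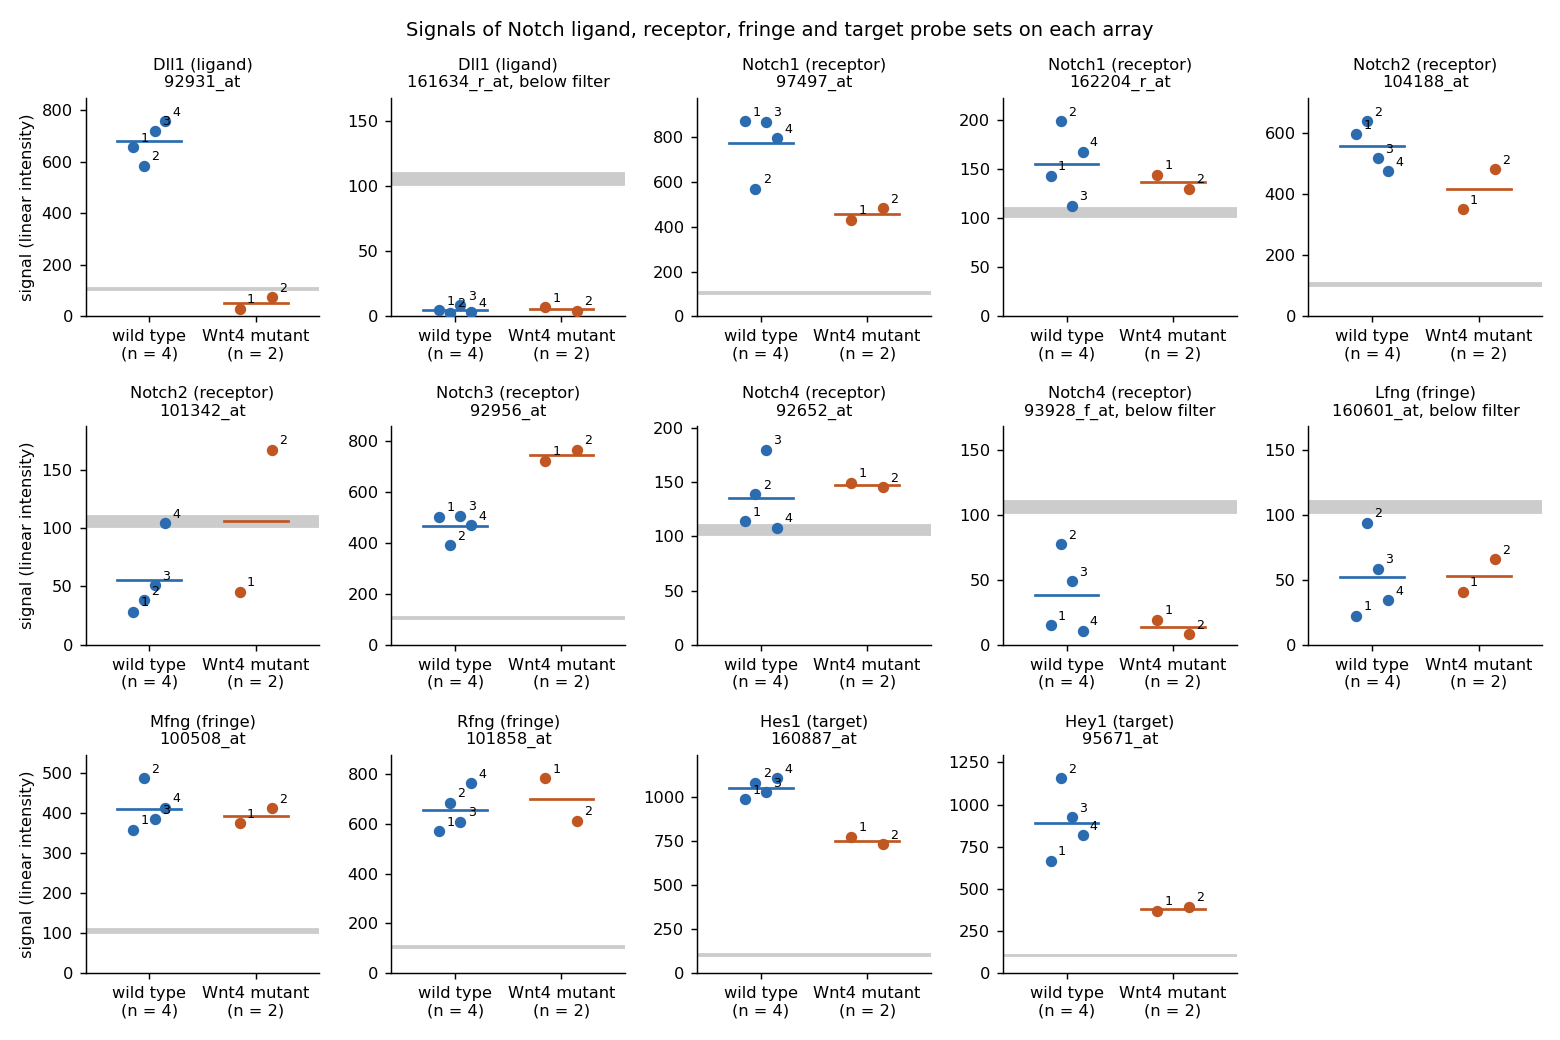
Linear signal of each of the 14 Notch probe sets on each array, with the replicate number beside each point, a bar at the group mean and a grey band at the filter levels of the 6 arrays (101 to 110). Dll1 at 92931_at falls from 585 to 757 in the wild type to 29.8 and 74.98 in the mutant, below the band, while Notch3 is above the wild-type range on both mutant arrays.

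The ligand Dll1 had the largest difference among the 9 genes tested. Its probe set 92931_at read 656, 585, 720 and 757 on wild-type arrays 1 to 4 and 29.8 and 74.98 on mutant arrays 1 and 2. Every wild-type array was far above both mutant arrays, with means of 680 ± 75.6 (SD, n = 4) and 52.4 ± 31.9 (SD, n = 2). The difference was -3.42 ± 0.26 (SE; 95% confidence interval -4.01 to -2.83; adjusted p = 1.10e-04). Both mutant signals lay below the filter level, so the probe set entered the test through the 4 wild-type arrays alone. At such signals the size of a difference depends on the added offset, and it was -3.81 with an offset of 1 and -2.70 with 64. The mutant arrays also differed from each other, with -2.93 when mutant replicate 1 was left out and -3.92 when replicate 2 was left out. Dll1 passed under each of the 16 alternatives run. Its other probe set, 161634_r_at, read between 2.87 and 8.45 on the 6 arrays and was not tested. The suffix _r_at marks probe sets chosen under relaxed design rules.

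Markers of the renal vesicle and early nephron, a list that includes Wnt4 itself, moved in the same direction as Dll1. Of 14 genes 13 were measured and 12 tested, 8 fell and 4 did not pass, none rose in limma (0 also at an unadjusted p under 0.05), and their summed signal was 10134 to 11643 on wild-type and 6435 to 6790 on mutant arrays. The transcription factors Pax8 and Lhx1 had -2.23 and -1.76, and Cdh6, a cadherin of the early nephron, -1.39. No marker was listed at 0, and Bmp2 lay below the filter level. Of the proximal tubule markers, 7 of 10 tested fell and 3 did not pass, with summed signals of 2404 to 3549 and 360 to 461. Over all tested genes 6.35% were lower. Wnt4, Fgf8 and Dkk1 of the first list lay below the filter level on both mutant arrays. So did Slc34a1, Slc22a6, Pdzk1, Vil1, Mep1a and Napsa of the second. These markers entered the test through wild-type arrays alone, so their place in these counts is no support. The part of these cell types in the fall of Dll1 was not tested.

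The sequence before the start of Dll1 is shown because Dll1 changed most, and those of Notch1 and Notch3 because these receptors moved in opposite directions. They are the 250 bases before each annotated start in RefSeq (build GRCm38.p6), written 5′ to 3′ along the gene's strand. The table used here holds such windows for 7 of the 10 genes, with 2 starts for Dll1, and none is printed for Mfng, Hes1 and Hey1. Capitals mark matches, on either strand, to TGGGAA, the core bound by Rbpj, and to CTTTGA or CTTTGT, cores bound by the TCF/LEF factors of Wnt signalling.
Dll1, chr17:15376933-15377182, minus strand: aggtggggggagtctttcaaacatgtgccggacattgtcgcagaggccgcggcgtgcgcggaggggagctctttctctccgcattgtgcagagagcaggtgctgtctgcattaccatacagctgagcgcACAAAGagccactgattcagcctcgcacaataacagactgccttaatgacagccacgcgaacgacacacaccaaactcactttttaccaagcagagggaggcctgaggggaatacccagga
Dll1, second start, chr17:15375824-15376073, minus strand: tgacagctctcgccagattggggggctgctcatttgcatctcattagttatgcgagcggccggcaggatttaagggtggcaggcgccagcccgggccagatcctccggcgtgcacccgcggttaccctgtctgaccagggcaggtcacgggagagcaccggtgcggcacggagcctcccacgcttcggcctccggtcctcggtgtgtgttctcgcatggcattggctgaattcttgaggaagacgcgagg
Notch1, chr2:26503823-26504072, minus strand: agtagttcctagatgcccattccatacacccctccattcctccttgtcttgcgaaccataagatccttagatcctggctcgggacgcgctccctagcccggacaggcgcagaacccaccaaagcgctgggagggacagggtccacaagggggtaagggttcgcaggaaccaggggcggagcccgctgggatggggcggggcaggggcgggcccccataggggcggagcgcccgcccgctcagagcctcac
Notch3, chr17:32166891-32167140, minus strand: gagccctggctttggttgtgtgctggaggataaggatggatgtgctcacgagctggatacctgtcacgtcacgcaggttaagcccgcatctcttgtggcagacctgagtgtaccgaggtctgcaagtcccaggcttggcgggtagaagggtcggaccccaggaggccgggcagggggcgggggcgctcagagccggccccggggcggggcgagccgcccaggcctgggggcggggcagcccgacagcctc
The first of the Dll1 windows holds 1 match to CTTTGT, on the strand opposite the gene, 121 to 116 bases before the start. The other Dll1 window and those of Notch1 and Notch3 hold no match to any of the 3 cores. Among the other genes, Lfng has 2 matches to TGGGAA, 135 and 108 bases before its start, and 1 to CTTTGT. Over all 32851 windows of the same length, 21.6% hold TGGGAA and 27.6% hold at least 1 of the TCF/LEF cores, so a match in 1 window is common.

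The receptors did not move together: Notch1 fell and Notch3 rose. Notch1, a receptor active in many embryonic tissues, read 871, 570, 869 and 795 on wild-type and 431 and 482 on mutant arrays at probe set 97497_at. The mutants were lower than each of the wild types, but wild-type replicate 2 stood near them. Means were 776 ± 142 (SD, n = 4) and 457 ± 36.3 (SD, n = 2), and the difference was -0.73 ± 0.18 (SE; interval -1.13 to -0.32; adjusted p = 0.0346). This call was the least stable of the 5. It was lost without wild-type replicate 1 (adjusted p = 0.0843) or 3 (0.0721), without mutant replicate 1 (0.220) or 2 (0.143), with no filter (0.0510), with no variance trend (0.0835) and with the replicate number as a block (0.09997). The other Notch1 probe set, 162204_r_at, had 143, 198, 113 and 167 on wild-type and 144 and 130 on mutant arrays. These signals lay just above the filter level, the groups overlapped, and the difference was -0.14 (interval -0.76 to 0.47; adjusted p = 0.786).

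Notch3, the receptor known from the mural cells of arteries, rose in the mutant. It read 503, 393, 507 and 471 on wild-type and 724 and 766 on mutant arrays, so the mutant was above every wild-type array. The mean went from 469 ± 53.1 (SD, n = 4) to 745 ± 29.8 (SD, n = 2), 159% of the wild type, a difference of 0.66 ± 0.14 (SE; interval 0.35 to 0.97; adjusted p = 0.0178). The call was lost without either mutant array (adjusted p = 0.105 without replicate 1 and 0.158 without replicate 2), with differences of 0.70 and 0.62. Smooth muscle and pericyte markers did not rise beside Notch3. Of 11 such genes 8 were measured and 6 tested. In limma 2 fell, the actin-binding protein Tagln (-1.32) and the adhesion protein Mcam (-0.94), where 6.35% of all tested genes were lower. None rose (0 also at an unadjusted p under 0.05). Their summed signal was 2360 to 2939 on wild-type and 1720 to 1744 on mutant arrays, with none at 0. Cnn1 was below the filter level throughout and Rgs5 exceeded it on 1 array, so neither was tested. Stromal markers did rise, all 8 of those tested, with summed signals of 8640 to 9371 and 22140 to 22147. Of the skeletal muscle markers, 5 of 8 tested rose and 3 did not pass, with summed signals of 1083 to 1830 and 4801 to 5080. Tnnc1, which rose, entered the test through the mutant arrays alone, so its place in this count is no support. Over all tested genes 5.13% were higher. The part of stromal and muscle cells in the Notch3 difference was not tested.

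Notch2, the receptor most associated with the proximal nephron, did not pass at either probe set. At 104188_at it read 597, 640, 518 and 476 on wild-type and 351 and 483 on mutant arrays. Mutant replicate 1 was below every wild-type array and replicate 2 was within their range. The difference was -0.41 ± 0.17 (SE; interval -0.81 to -0.02; adjusted p = 0.163). It ran from -0.64 to -0.19 when 1 array was left out. The other Notch2 probe set, 101342_at, was dim, with 28.3, 38.2, 51.4 and 104 on wild-type and 45.6 and 167 on mutant arrays. It entered the test through wild-type replicate 4 and mutant replicate 2 alone, and its difference of 0.68 had an interval of -0.72 to 2.07 (adjusted p = 0.542).

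Notch4, a receptor largely of endothelial cells, read 114, 139, 180 and 108 on wild-type and 150 and 146 on mutant arrays at 92652_at. The mutant lay inside the wild-type range, with a difference of 0.14 (interval -0.49 to 0.76; adjusted p = 0.799). Its other probe set, 93928_f_at, whose suffix marks probes shared within a sequence family, lay between 8.33 and 77.5 and was not tested. Of 14 endothelial markers tested, 5 fell and 9 did not pass, with summed signals of 10033 to 10699 on wild-type and 7870 to 7937 on mutant arrays. Over all tested genes 6.35% were lower. The nitric oxide synthase Nos3 had -1.76 and the tight junction gene Cldn5 -0.93, while the endothelial cadherin Cdh5 had -0.10 (adjusted p = 0.615). Nos3 lay below the filter level on both mutant arrays and entered the test through the wild-type arrays alone. All 14 passed the filter and none was at 0 on any array. Their part in the Notch4 and Notch1 values was not tested.

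**Figure D2:**
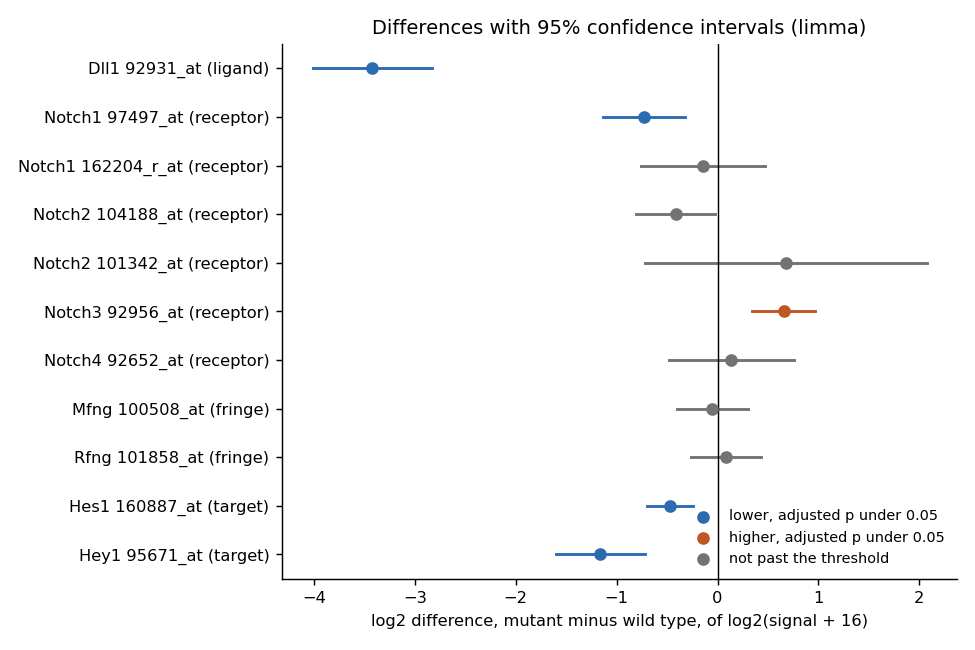
Difference between mutant and wild type for each of the 11 tested probe sets, on the scale of log2(signal + 16), with 95% confidence intervals from limma. The 4 lower probe sets (Dll1, Notch1 at 97497_at, Hes1, Hey1) and the higher Notch3 have intervals on 1 side of 0, and so does Notch2 at 104188_at, which did not pass after adjustment.

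Whether receptors changed unequally was examined as the log2 ratio of 2 receptors within the same array, which does not depend on the scaling of an array. Signals of different probe sets have no common scale, so only the shift between the groups is read. The largest shift was that of Notch1 over Notch3. This ratio was 0.77, 0.52, 0.76 and 0.73 on wild-type and -0.73 and -0.65 on mutant arrays, and the groups did not overlap. Its mean shifted by -1.39, from 0.70 ± 0.12 (SD, n = 4) to -0.69 ± 0.055 (SD, n = 2), with p = 0.133 in an exact two-sided permutation test, the smallest p that 4 arrays against 2 allow in this test. Notch2 over Notch3 shifted by -1.07, Notch1 over Notch4 by -0.86 and Notch3 over Notch4 by 0.52, and in these pairs too the mutants lay outside the wild-type range (exact permutation p = 0.133 each). Notch1 over Notch2 (-0.31, exact permutation p = 0.4) and Notch2 over Notch4 (-0.55, exact permutation p = 0.267) overlapped. Over the 6 pairs the adjusted p was 0.2 for the 4 that did not overlap, so none could pass in this design. The shift of Notch1 over Notch3 lay between -1.44 and -1.28 under the 9 alternatives run.

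**Figure D3:**
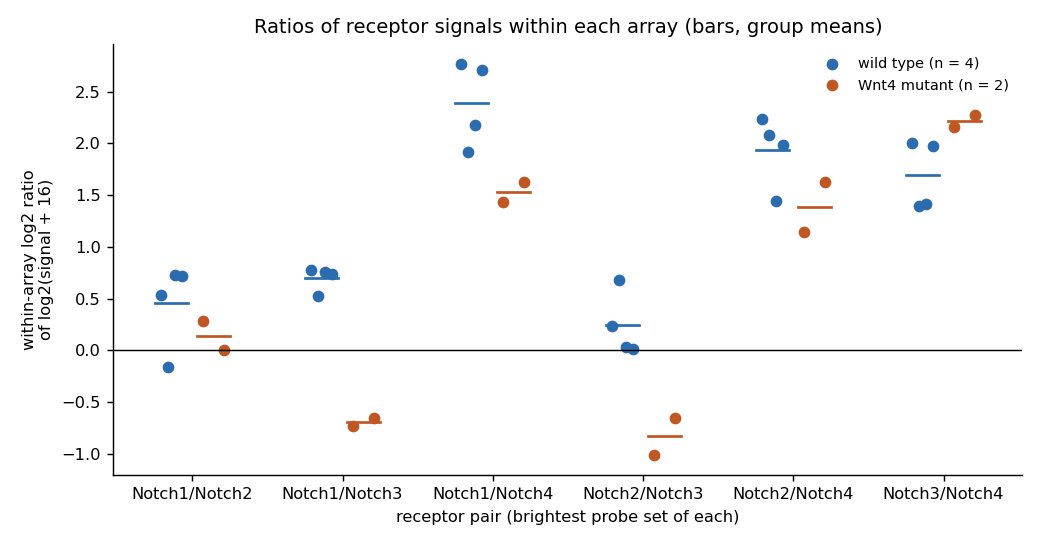
Within-array log2 ratio of each pair of Notch receptors, each array as a point and the group mean as a bar. For Notch1/Notch3 the wild-type arrays lie between 0.52 and 0.77 and the mutant arrays at -0.73 and -0.65.

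No change was detected in the fringe enzymes. Mfng read 359, 487, 384 and 414 on wild-type and 375 and 413 on mutant arrays, and the mutants lay inside the wild-type range. Its difference was -0.05 (interval -0.40 to 0.30; adjusted p = 0.868). Rfng had 570, 684, 608 and 762 against 782 and 612, overlapping, and differed by 0.08 (interval -0.27 to 0.43; adjusted p = 0.778). For both enzymes the interval excludes a 2-fold change on this scale but not smaller ones, and the sign turned for each when mutant replicate 1 was left out. Lfng, the fringe best known from the segmentation of the embryo, had 22.4, 93.8, 58.5 and 34.3 on wild-type and 40.9 and 65.8 on mutant arrays. All 6 values were below the filter level and the groups overlapped, so a difference in Lfng was not detectable at this signal.

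Both target genes fell, Hey1 more than Hes1. Hey1, a repressor of the HEY family, read 667, 1156, 927 and 820 on wild-type and 371 and 394 on mutant arrays. All 4 wild-type arrays were above both mutants, although the wild-type values spread widely, with replicate 2 high and replicate 1 low. The mean fell from 892 ± 206 (SD, n = 4) to 383 ± 16.2 (SD, n = 2), 42.9% of the wild type, and the difference was -1.16 ± 0.19 (SE; interval -1.60 to -0.72; adjusted p = 0.00610). With 1 mutant array the call was narrowly lost (adjusted p = 0.0636 without replicate 1 and 0.0518 without replicate 2), at -1.12 and -1.20.

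Hes1, a repressor that Notch switches on in many tissues, read 990, 1084, 1030 and 1109 on wild-type and 776 and 733 on mutant arrays. It had the smallest relative spread in the wild type of the 11 tested probe sets, with an SD of 5.07% of the mean, and the groups were clearly apart. The mean fell from 1053 ± 53.4 (SD, n = 4) to 754 ± 30.4 (SD, n = 2), 71.6% of the wild type, a difference of -0.47 ± 0.10 (SE; interval -0.70 to -0.25; adjusted p = 0.0190). Without mutant replicate 1 the adjusted p was 0.104 and without replicate 2 it was 0.175, at -0.51 and -0.43. The call was also lost with the replicate number as a block (adjusted p = 0.0793). The intervals of Hes1 and Hey1 do not overlap, but the difference between them was not tested.

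The other genes of the pathway were taken from a list of 58. Of these, 28 had no probe set named for them here, 2 were below the filter and 28 were tested. Of the tested genes 0 fell and 1 rose in limma, where 6.35% of all 6082 tested genes were lower and 5.13% higher. The median difference was 0.17, beside 0.01 over all genes. At an unadjusted p under 0.05 the counts were 2 and 7, but the share of all genes at that threshold was not taken, so they are not read further. With limma's array weights 1 fell and 4 rose, in a fit that called 738 probe sets lower and 613 higher over all, against 488 and 371 without weights. The mutant arrays lay above all wild-type arrays for 9 of the 28 and below for 2, where 19.3% and 19.9% of all genes did so (39.1% outside in either direction, against 11 of these 28). The 1 gene that rose without array weights was Dlk1, a Delta-like protein that lacks the part by which ligands activate the receptor. It had 2667, 4139, 3683 and 2401 on wild-type and 6668 and 7381 on mutant arrays, all mutants above all wild types. Its difference was 1.15 ± 0.20 (SE; adjusted p = 0.00805), and the call was lost without either mutant array (adjusted p = 0.0546 without replicate 1 and 0.0908 without replicate 2). Dlk1 is also a gene of embryonic muscle, whose markers were higher as given above, and their part in it was not tested. Among the other ligands, Jag2 was below the filter (15.8 to 75.2 in the wild type and 12.2 and 22.4 in the mutant), and Jag1, Dll3 and Dll4 were not analysed here.

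None of the 6 proteases tested passed, and their differences lay between -0.25 and 0.20. Adam10, which makes the first activating cut, had 0.16 (adjusted p = 0.587) and Furin, which processes the receptor on its way to the surface, -0.02 (adjusted p = 0.913). Of the 6 genes of ligand and receptor trafficking none passed either, and the mutants lay above all wild types for 3 of them, where 19.3% of all genes did. The ubiquitin ligase Itch had 0.31 (adjusted p = 0.377) and the Deltex gene Dtx2 0.63 (adjusted p = 0.0858). None of the 12 genes of the nuclear complex passed, and their median difference was 0.28. The mutants lay above all wild types for 5 of them and below for 1, where 19.3% and 19.9% of all genes did so. Ctbp1, a corepressor, had -0.04 (adjusted p = 0.816). Tle5, of the Groucho corepressor family, had -0.54 (adjusted p = 0.0689), with both mutants below the wild type. Its relatives Tle1, Tle3 and Tle4 went the other way, with 0.49, 0.29 and 0.36 (adjusted p = 0.0609, 0.107 and 0.348). Rbpj, the DNA-binding protein of the pathway and outside the naming rule, read 497, 401, 417 and 348 against 494 and 531, overlapping, with 0.30 (adjusted p = 0.264).

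In the HES and HEY family beyond the 2 targets above, 3 genes were tested and none passed. Hes6, which acts against Hes1, had 0.15 (adjusted p = 0.491) and Hes2 -0.20 (adjusted p = 0.744). Hes5, a target of Notch in neural tissue and nephron, was singled out after its values were seen. It read 102, 127, 94.1 and 130 on wild-type and 13.5 and 63.0 on mutant arrays, near the filter level in the wild type and below it in the mutant. Both mutants were below all wild types, with a difference of -1.41 ± 0.47 (SE; adjusted p = 0.0929). Hes5 passed the filter through wild-type replicates 2 and 4 alone, so its place among the genes below the wild type is no support. Its other probe set overlapped between the groups (13.2 to 75.6 against 29.6 and 47.3) and was not tested.

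**Figure D4:**
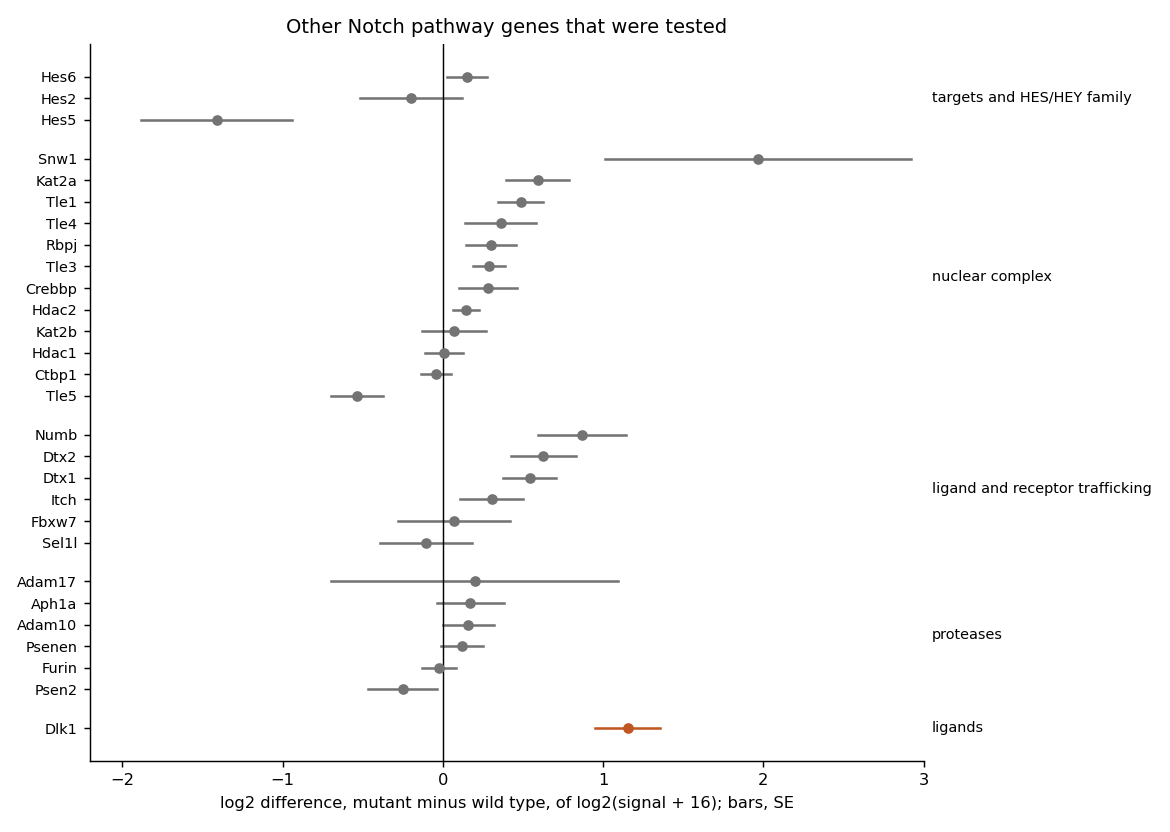
Difference between mutant and wild type, on the scale of log2(signal + 16), with its SE, for the 28 tested genes of the Notch pathway list, grouped by role. Dlk1, coloured, rose by 1.15 and the others, in grey, did not pass, with Hes5 lowest at -1.41 and Snw1 highest at 1.96 with a wide error.

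**Figure D5:**
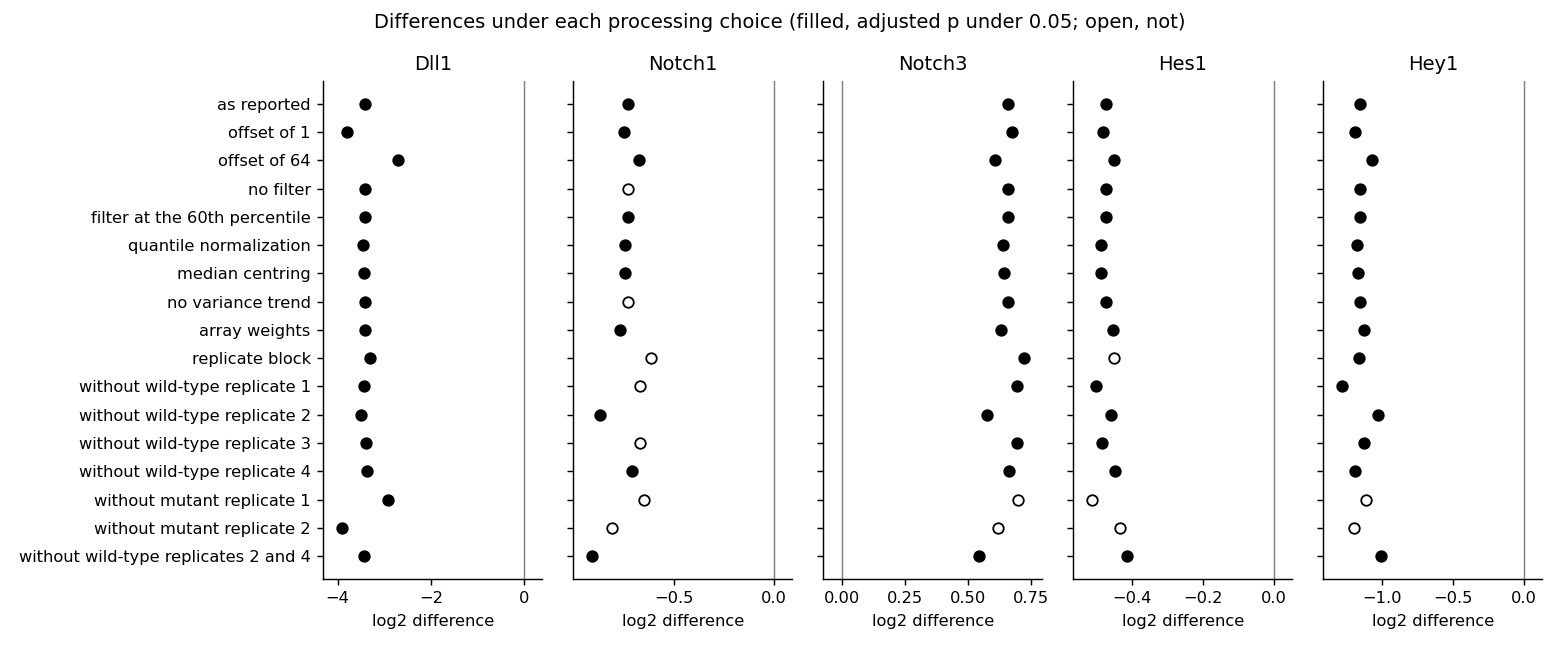
Difference for the 5 Notch genes past the threshold under each processing choice, filled where the adjusted p stayed under 0.05. Dll1 is filled throughout, while Notch1, Notch3, Hes1 and Hey1 are open without either mutant array, and no point crosses 0.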

How the data were processed

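The 6 Affymetrix MG_U74Av2 arrays carry 1 colour each, 4 wild-type and 2 mutant. Each deposited value is the linear intensity of a probe set. Per the submitters' processing notes GCOS was used, with no version or settings stated there. In each column the mean without the lowest and highest 2% was 500.27 to 500.29, so the arrays had been scaled before deposit. Precision is limited by having 6 arrays, and no detection calls were used.

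Names came from the platform annotation. Of 12422 probe sets (66 controls set aside), 10833 had 1 symbol, 396 several and 1193 none, and 10817 matched the RefSeq table of GRCm38.p6 by gene identifier. The offset of 16, the filter, limma 3.58.1 under R 4.3.3 with a variance trend and Benjamini-Hochberg adjustment over the 7981 kept probe sets follow an earlier analysis of these data. A gene on a list was represented by its brightest kept probe set. The fits were tested on simulated data. All 10 genes and all their probe sets are named. From the pathway list the genes past the threshold and the 2 brightest others of each role are named. For Dll1 and Notch3 the 3 genes most like them are named, and Hes5, Rbpj, Snw1, Tle1, Tle3, Tle4 and the absent ligands were added. The genes, lists and alternatives were chosen with earlier results of these data known. Promoter motif cores were chosen after the sequence table was seen.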

Additional observations from a re-analysis of the deposited data

Results flagged for a closer look

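Among the 39 probe sets of the Notch genes and the pathway list that were tested, 3 had 1 wild-type array far from the other 3, judged by its gap to the nearest array as a share of the range of log2 values (against Dixon's 95% critical value for 4 arrays). Chance alone gives about 1 such case in 20. Adam17, a protease of Notch receptors, had a share of 0.838, with 3.92 on wild-type replicate 4 against 85.6 to 123 on the others. Adam10 had a share of 0.941, with 838 on wild-type replicate 4 against 1191 to 1218. Sel1l, a gene of protein quality control, had a share of 0.957, with 211 on wild-type replicate 2 against 398 to 410. None of the 3 passed the threshold. Among the 11 tested probe sets of 9 Notch genes no wild-type array stood out by this measure, and Lfng was not examined. The nearest was Notch1 at 97497_at, with a share of 0.784 for replicate 2, and Notch3 had 0.714, also for replicate 2.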

How the results depend on the processing

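Dll1 kept its direction and its call under all 16 alternatives, with -3.92 to -2.70. The differences of Notch1 at 97497_at (-0.91 to -0.61), Notch3 (0.55 to 0.72), Hes1 (-0.51 to -0.41) and Hey1 (-1.29 to -1.01) kept their direction. The number of Notch probe sets past the threshold was 1 to 4 lower and 0 to 1 higher when 1 array was left out. It was 1 lower, Dll1, and 0 higher without either mutant array, whose lone partner was taken to vary like the wild type. Over all probe sets the counts were 188 to 553 lower and 114 to 448 higher when 1 array was left out, and 738 and 613 with array weights. Leaving out mutant replicate 1 gave 198 lower and 133 higher, and mutant replicate 2 gave 188 and 114. Without wild-type replicate 1, 320 were lower. With no filter 390 were lower and 306 higher, and with no variance trend 328 and 251. Of the pathway list, 0 to 1 fell and 0 to 2 rose when 1 array was left out, and 1 fell and 4 rose with array weights. Without wild-type replicates 2 and 4 the counts for the Notch probe sets were 4 and 1. Signs turned for differences that had not passed: Mfng (-0.12 to 0.030 when 1 array was left out, with 0.030 without wild-type replicate 2 and 0.014 without mutant replicate 1, and 0.079 without wild-type replicates 2 and 4), Rfng (-0.089 to 0.26 when 1 array was left out, lowest without mutant replicate 1) and Notch1 at 162204_r_at (0.093 without wild-type replicates 2 and 4). Apart from changes that follow from fewer arrays or probe sets, the cause was not tested. Replicate numbers 1 and 2 occur in both groups, but the labels do not say that they pair samples, and deviations from the group means correlated with r of 0.0030 and -0.015. With the number as a replicate block, 362 were lower and 341 higher, the Notch probe sets gave 2 lower and 1 higher, and the pathway list 0 and 2. In that fit Notch1 had -0.61 (adjusted p = 0.09997) and Hes1 -0.45 (0.0793). Low signal limits Lfng, the mutant level of Dll1 and the dim probe sets of Notch2 and Notch4.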

Other observations

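Genes near the Notch genes on the chromosome were looked up in RefSeq order, taking the nearest tested protein-coding gene on each side of the 5 that passed. These lay 1 to 10 protein-coding genes away, so most were not adjacent. Of these 10 neighbours 1 passed the test, a share near the 11.5% of all tested genes that passed. It was Mrps28, a mitochondrial ribosomal protein near Hey1 (-0.60, from 547 to 353, adjusted p = 0.0337). Stmn2, on the other side of Hey1, had 0.55 (adjusted p = 0.134). The neighbours of Dll1 were the proteasome subunit Psmb1 (0.01, adjusted p = 0.966) and the matrix protein Thbs2 (0.02, adjusted p = 0.972), and those of Notch1 were Sec16a (0.15) and Dipk1b (0.38). Those of Notch3 were Rrp1b (0.24) and Akap8 (-0.23), and those of Hes1 were Ccdc50 (-0.01) and Atp13a3 (-0.30).

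The 3 genes whose log2 signals were most like those of Dll1 over the 6 arrays were Mrps12, a mitochondrial ribosomal protein, Lrp2, the endocytic receptor megalin of the proximal tubule, and Slc2a2, a glucose transporter. They had differences of -0.74, -2.49 and -2.01. For Notch3 they were the kinase Tec (0.97), the sarcomeric actin Actc1 (3.01 at probe set 101028_i_at) and Bnip3, a gene of hypoxia and mitophagy (1.22). The arrays form 2 groups, so this likeness mostly reflects the group difference, and it is a description of these arrays. In the pathway list, Snw1, a coregulator that binds the Notch nuclear complex, read 78.4, 16.8, 430 and 456 on wild-type and 636 and 579 on mutant arrays. It was singled out after its values were seen and had 1.96 ± 0.95 (SE; adjusted p = 0.231).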
